A study of Mus musculus with 3 samples.

Results

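The endothelial cells of the mouse jaw were 69 of 20504 barcodes that passed the cell filter in 3 single-cell RNA libraries. They were chosen by their own counts of unique molecular identifiers (UMIs, each standing for 1 captured RNA molecule). The cell filter asked for a depth of 500 UMIs or more, for 250 genes or more, and for a mitochondrial share no higher than 15%. It was taken as endothelial with at least 1 UMI of Cdh5, at least 3 UMIs of Cdh5, Emcn and Egfl7 together and 0 UMIs of Ptprc, the CD45 antigen of leukocytes. The library labelled 1d gave 8 such cells, the library labelled 7d gave 19 and the library labelled Ctrl gave 42. The mice of 1d and 7d had received 10 Gy to the head and neck and were killed 1 and 7 days later. Ctrl mice were not treated. All 24 animals were wild-type C57BL/6 males of 10 weeks, and the jaws of 8 of them were pooled in each library. Each group was therefore 1 library with no replicate, and no test between groups was possible. All intervals below are 95% intervals that cover counting error only, and they take no account of differences between cells or animals.

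Endothelial cells line every blood and lymph vessel. They are joined by VE-cadherin, the product of Cdh5, and arteries, capillaries, veins, bone sinusoids and lymphatics each carry their own gene programme. They sense blood flow through factors such as KLF2, admit leukocytes by displaying selectins and adhesion molecules under NF-kB control, balance clotting and fibrinolysis, and secrete factors that act on blood-forming and bone cells. Endothelial cells are a known target of ionising radiation, which activates p53 and so induces genes of growth arrest and death.

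The groups are named by their labels throughout, because the p53 response ran against them. Genes that p53 induces were highest in the library labelled Ctrl, in the endothelial cells and also in the other barcodes (values below). Total counts per library were between 41048084 and 49998293 UMIs over all barcodes. The endothelial cells held 38031 UMIs in 1d, 99540 in 7d and 229511 in Ctrl, so that 1 UMI was worth 26.3 CPM (counts per 1000000 UMIs) in 1d, 10.0 CPM in 7d and 4.36 CPM in Ctrl. Their median depth was 4983 UMIs in 1d, 3841 in 7d and 4453 in Ctrl. Between 9 and 15 barcodes were shared by any pair of libraries, and 0 of them were endothelial. A doublet caller marked 1 endothelial cell in 1d, 2 in 7d and 8 in Ctrl. RNA of blood cells exceeded 2% of the UMIs of 0 endothelial cells in 1d, 1 in 7d and 3 in Ctrl. The cell in 7d had 14.5% of its UMIs in neutrophil genes and held 93.1% of the neutrophil-gene UMIs of that library's endothelial cells. In Ctrl, 1 cell had 27.5% of its UMIs in erythroid genes. Fibroblast genes summed to 0 CPM in 1d, 291 CPM in 7d and 1264 CPM in Ctrl, where 1 cell held 75.9% of them. Another 4 barcodes in 1d, 8 in 7d and 16 in Ctrl met the endothelial rule except for a Ptprc UMI and were left out.

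The label was checked on 30 genes of endothelium that the rule did not use. In all 3 libraries, 24 of them stood at least 10-fold higher in the endothelial cells than in the rest of the barcodes, and 29 stood at least 2-fold higher. Pecam1, the CD31 adhesion molecule between endothelial cells, had 63 UMIs in 8 of 8 cells of 1d, 181 UMIs in 18 of 19 cells of 7d and 311 UMIs in 42 of 42 cells of Ctrl. Its level was 1657 CPM in 1d, 1818 CPM in 7d and 1355 CPM in Ctrl, against 34.6, 34.3 and 44.9 CPM in the remaining barcodes. A median of 19 of the 30 genes was found per cell in 1d, 20 in 7d and 19.5 in Ctrl. Fli1, an ETS factor that blood cells also express, was the exception, with a fold of 1.55 in its lowest library. At the edge of the rule, 4 cells lay just inside with a marker sum of 3, all with Pecam1. Just outside, 6 barcodes had a sum of 2, all with Pecam1, and 10 had a sum of 1, of which 4 had Pecam1.

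Endothelial cells made up 0.156% of barcodes in 1d (0.0674% to 0.307%), 0.292% in 7d (0.176% to 0.456%) and 0.473% in Ctrl (0.341% to 0.639%). The intervals of 1d and Ctrl did not overlap, and that of 7d overlapped both. This order depended on what else was in the library. Over barcodes without Ptprc and with under 50% haemoglobin UMIs, the shares were 0.558% in 1d, 2.31% in 7d and 1.50% in Ctrl. With 8 cells in 1d, the values of that library are the least certain.

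**Figure D1:**
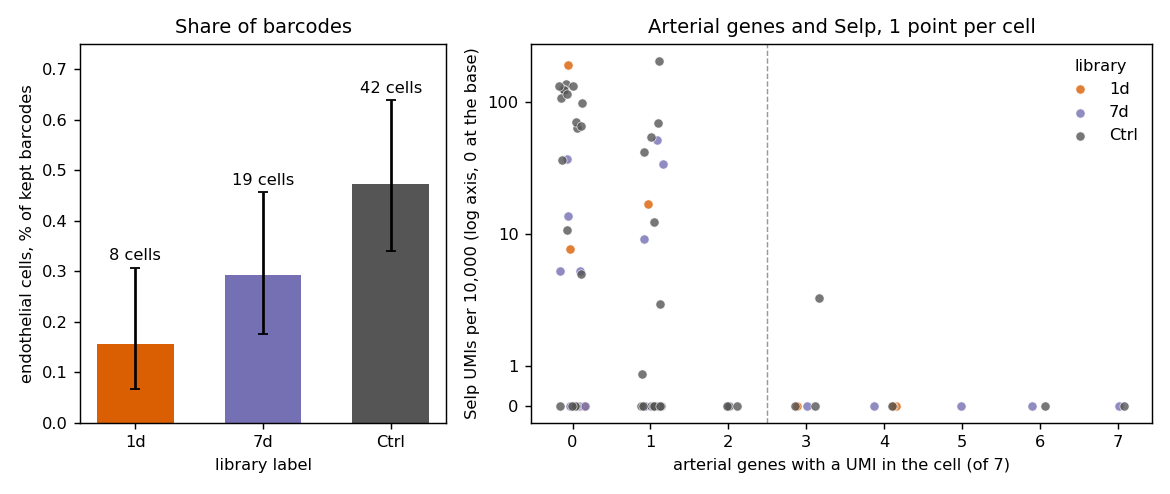
Left, endothelial cells as a percentage of kept barcodes by library label, with exact 95% binomial intervals and the number of cells above each bar. Right, each point is 1 endothelial cell, placed by how many of 7 arterial genes had a UMI and by its Selp level per 10000 UMIs on a log axis; to the right of the dashed line (at least 3 arterial genes), 13 of 14 cells lie at 0 for Selp.

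An arterial set, a set with the venular gene Selp and a remainder could be told apart, by groupings made after the values were seen. The set used 7 arterial genes: the gap junction genes Gja4 and Gja5, Sema3g, Fbln5, Stmn2, the kinase gene Bmx and the Notch target Hey1. At least 3 of these 7 were found in 3 of 8 cells in 1d, 5 of 19 in 7d and 6 of 42 in Ctrl. The arterial list used elsewhere had 16 genes, and Efnb2, Unc5b and Cxcr4 were among its members left out here. At least 2 markers of that list were found at full depth in 7 of 8 cells of 1d, 16 of 19 of 7d and 38 of 42 of Ctrl. The size of the arterial set thus depends on the genes and the minimum chosen. The set was called at full depth, and it held the deepest cells of 7d (19360 UMIs) and Ctrl but not that of 1d. How far it depends on depth was not tested. Whether its separation from Selp holds with the full list was not tested. Selp, which encodes the P-selectin of venular endothelium, had UMIs in 3 cells in 1d, 7 in 7d and 22 in Ctrl. Of all 69 cells, 14 were in the arterial set, 32 had Selp and 1 was in both. Neither applied to 24 cells. The cell in both was the deepest of Ctrl, with 24440 UMIs, of which 8 were of Selp and 91 of the fibroblast gene Col1a1. It weighs heavily in sums over the arterial set of Ctrl. Ackr1, the chemokine-binding receptor of venules, had 0 UMIs in the arterial set of all 3 libraries. In the cells with Selp it had 5 of 5 UMIs in 1d, 53 of 54 in 7d and 41 of 41 in Ctrl. Cldn5, which encodes the tight junction protein claudin-5, was found in 1d and 7d in the arterial set alone, with 26 UMIs in 3 cells and 124 UMIs in 5 cells. In Ctrl it was spread, with 29 UMIs in the arterial set, 42 in the cells with Selp and 51 in the remainder. Plvap, which encodes the diaphragm protein of fenestrated vessels, had 0 UMIs in the arterial set of 1d and 7d and 37 UMIs there in Ctrl.

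Markers of other vessel types were found in part. With each cell thinned to 1000 UMIs, at least 2 capillary markers were found in 3 of 8 cells of 1d, 10 of 19 of 7d and 23 of 42 of Ctrl, and at least 2 sinusoid markers in 6 of 8 cells of 1d, 8 of 19 of 7d and 18 of 42 of Ctrl. Stab1, a scavenger receptor of sinusoids that macrophages share, had UMIs in 4 cells of 1d, 6 of 7d and 18 of Ctrl. Stab2 and Mrc1, further genes of sinusoids, Ccl21a of lymphatic vessels, Car4 of some capillaries and Madcam1 of mucosal venules had 0 UMIs in all 69 cells. Prox1, the factor that specifies lymphatic endothelium, had a UMI in 2 cells of 1d, 0 of 7d and 7 of Ctrl, and Lyve1 in 1 cell of Ctrl. At least 2 lymphatic markers were found in 2 of 8 cells of 1d, 2 of 19 of 7d and 6 of 42 of Ctrl at full depth, and in 0 cells once each was thinned to 1000 UMIs. At least 2 of the venous markers were found in 87.5% of thinned cells in 1d (47.3% to 99.7%), 47.4% in 7d (24.4% to 71.1%) and 52.4% in Ctrl (36.4% to 68.0%). For arterial markers this held in 4 of 8 cells of 1d, 12 of 19 of 7d and 21 of 42 of Ctrl, with overlapping intervals. Esm1, a gene of sprouting tip cells, had 33 UMIs in 7 cells of Ctrl and 0 UMIs in 1d and 7d. No cell in any library had UMIs of 2 of 6 cycling genes. The wider list of 20 G2 and M phase genes summed to 1157 CPM in 1d, 231 CPM in 7d and 240 CPM in Ctrl, but 1 cell held 28 of the 44 UMIs in 1d. Hmgb2, a chromatin protein gene that is not confined to cycling cells, held 16 of the 44 UMIs in 1d, 16 of 23 in 7d and 52 of 55 in Ctrl.

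The comparison of 1d with Ctrl asks what the endothelium looked like on the day after irradiation. A gene was measured with at least 20 UMIs over both libraries and was counted as higher or lower at a ratio of at least 2 or at most 0.5, with a pseudocount of 0.5 UMI. Of 2461 measured genes, 8.94% were at least 2-fold higher in 1d and 14.5% at least 2-fold lower, with a median log2 ratio of 0.00.

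Genes of the p53 response were lower in 1d than in Ctrl. Of 17 measured members, 0 were at least 2-fold higher and 15 were at least 2-fold lower, beside a background of 14.5%. The median log2 ratio was -1.61, and -1.87 without the pseudocount and with members at 0 UMIs set to 3 UMIs. Over the other barcodes 10 of these 17 genes were at least 2-fold lower in 1d, beside 13.7% of the same 2461 genes there. Without the cells marked as doublets 14 of 16 were lower, and without cells rich in blood RNA 15 of 17. Leaving out for each gene the cell with most of its UMIs gave 13 of 14.

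Genes of growth arrest and p53 feedback were among those lower in 1d, and Cdkn1a was the most abundant of those given here. Cdkn1a, the p21 inhibitor of the cell cycle, had 1394 CPM in 7 of 8 cells of 1d and 2976 CPM in 39 of 42 cells of Ctrl, a ratio of 0.468 (0.347 to 0.620). The same ratio was 0.458 in connective tissue cells and 0.376 in the rest of the barcodes. Gadd45a, a stress sensor that slows the cycle, had 2 UMIs in 1d and 81 in Ctrl, a ratio of 0.149 (0.0177 to 0.556). Mdm2, the ligase that degrades p53, had 2 UMIs in 1d and 77 in Ctrl, a ratio of 0.157 (0.0186 to 0.586).

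Genes of cell death and secreted signals ran the same way. Bax, the pore former of apoptosis, had 2 UMIs in 1d and 77 in Ctrl, a ratio of 0.157 (0.0186 to 0.586). Phlda3, an inhibitor of AKT signalling, had 0 UMIs in 1d against 111 UMIs in 31 of 42 cells of Ctrl and was at least 6.13-fold lower. Gdf15, a secreted stress cytokine, had 0 UMIs in 1d against 148 UMIs in 22 of 42 cells of Ctrl and was at least 8.17-fold lower. Rps27l, a p53-induced ribosomal protein paralogue, had 131 CPM in 1d and 802 CPM in Ctrl, a ratio of 0.164 (0.0526 to 0.390). Its sequence is close to that of Rps27, so reads could be shared between both genes. Btg2, an anti-proliferative gene that p53 and early response signals induce, was not lower, with 421 CPM in 1d and 296 CPM in Ctrl, a ratio of 1.42 (0.769 to 2.47).

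**Figure D2:**
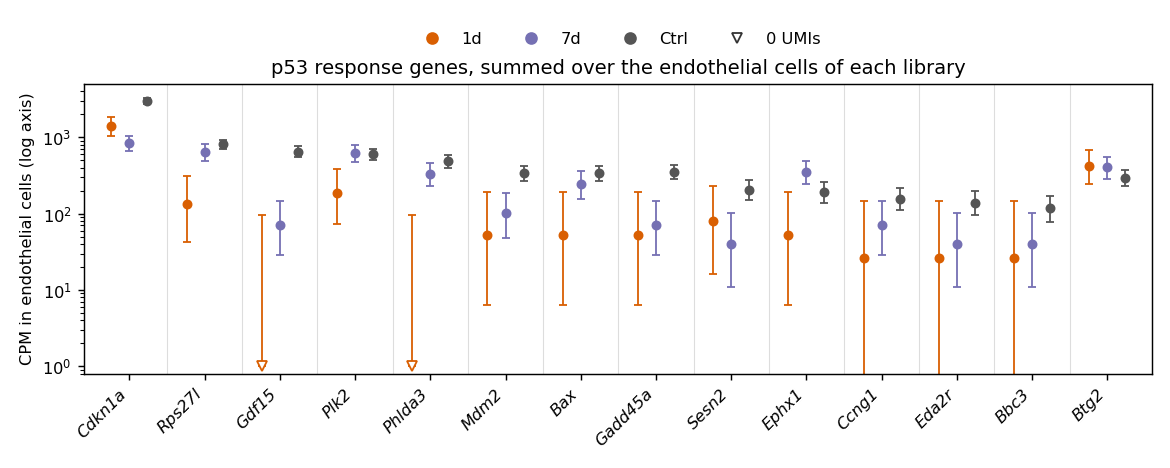
Level of 14 p53 response genes summed over the endothelial cells of each library, in CPM on a log axis, with exact 95% Poisson intervals; open triangles stand for 0 UMIs, with the line reaching the upper limit. Ctrl lies above 1d for each gene except Btg2; 7d lies below Ctrl for each gene except Btg2, Plk2 (613 CPM in 7d, 601 CPM in Ctrl) and Ephx1 (352 CPM in 7d, 192 CPM in Ctrl).

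Inflammatory genes were close to Ctrl in 1d, with some higher. Of 23 measured members of the NF-kB and inflammatory list, 6 were at least 2-fold higher and 1 lower, beside 8.94% and 14.5% of all genes. The counts were 1 higher and 2 lower with TMM factors, 3 and 2 with cells weighted equally, and 2 and 4 without each gene's highest cell. Icam1, the adhesion molecule that binds leukocyte integrins, had 2235 CPM in 1d and 1294 CPM in Ctrl, a ratio of 1.73 (1.34 to 2.20), and 1 cell held 50.6% of its UMIs in 1d. Vcam1, a second such molecule, had 1210 CPM in 1d and 579 CPM in Ctrl, a ratio of 2.09 (1.46 to 2.94), and 1 cell held 54.3% of its UMIs in 1d. Without the highest cell of each library the log2 ratio of Vcam1 was 0.55, against 1.07 with it. Il6, which encodes interleukin 6, had 59 UMIs in 1d, of which 56 lay in 1 cell. Without that cell its log2 ratio was -1.57 in place of 1.90. Selp had 164 UMIs in 1d and 848 UMIs in Ctrl, at 4312 and 3695 CPM, and 152 of the 164 UMIs lay in 1 cell. Without the highest cell of each library its log2 ratio was -2.99, against 0.23 with it.

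Vessel identity genes differed in part. Of 11 measured arterial genes, 5 were at least 2-fold higher in 1d and 1 lower, beside 8.94% and 14.5% of all genes. Sema3g, a semaphorin of arterial endothelium, had 605 CPM in 3 of 8 cells of 1d and 126 CPM in 8 of 42 cells of Ctrl, a ratio of 4.79 (2.64 to 8.57). Fbln5, an elastic fibre protein gene, had a ratio of 4.58 (2.51 to 8.25), and Ltbp4, which stores TGF-beta in elastic fibres, had 2.74 (1.78 to 4.14). The exception was Cxcr4, the receptor of CXCL12, with 131 CPM in 1d and 728 CPM in Ctrl, a ratio of 0.181 (0.0579 to 0.430). Cd34, the sialomucin of capillary endothelium, had 131 CPM in 1d and 562 CPM in Ctrl, a ratio of 0.234 (0.0747 to 0.560). Of the Notch ligands, Jag1 had 763 CPM in 1d and 218 CPM in Ctrl, a ratio of 3.50 (2.14 to 5.64).

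Of 13 measured clotting genes 5 were at least 2-fold higher in 1d and 2 lower, beside 8.94% and 14.5% of all genes. The direction did not hold under other settings: 0 were higher and 2 lower with TMM factors, 2 and 2 with cells weighted equally, 2 and 2 at a marker sum of at least 5, and 1 and 2 without each gene's highest cell. Vwf, the carrier of platelet adhesion, had 868 CPM in 1d and 423 CPM in Ctrl, a ratio of 2.05 (1.34 to 3.08). Thbd, the receptor that turns thrombin to an anticoagulant, had 2.12 (1.20 to 3.58), with 60.0% of its UMIs in 1d in 1 cell. Plat, the tissue plasminogen activator gene, had 0 UMIs in 1d against 75 UMIs in 18 of 42 cells of Ctrl and was at least 4.14-fold lower. Of 19 measured immediate early genes 0 were higher and 3 lower, near the 14.5% that were lower over all genes. With TMM factors 9 of the 19 were lower, and at a marker sum of at least 5 it was 7. Of 13 measured interferon genes 3 were higher and 1 lower, beside 8.94% and 14.5% of all genes. Without each gene's highest cell 1 of 10 was higher and 2 were lower. Ifi27l2a, an interferon-induced gene, had 12 UMIs in 1d and 8 in Ctrl, a ratio of 9.05 (3.40 to 25.5), and Cxcl10, an interferon-induced chemokine, had 15 UMIs in 1d, all in 1 cell.

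Of 17 measured genes of the basement membrane, 3 were at least 2-fold higher in 1d and 2 lower, near the 8.94% and 14.5% of all genes, and with TMM factors 1 was higher and 4 lower. Col15a1, a collagen of the vessel basement membrane, had 1 UMI in 1d against 77 UMIs in Ctrl, a ratio of 0.0784 (0.00196 to 0.450). Igfbp7, an abundant secreted protein gene of endothelium, had 763 CPM in 1d and 2179 CPM in Ctrl, a ratio of 0.350 (0.232 to 0.509). Sparcl1, a matricellular protein gene, had 1472 CPM in 1d and 462 CPM in Ctrl, a ratio of 3.19 (2.26 to 4.45), and its log2 ratio was 0.99 without the highest cell of each library, against 1.68 with it. Mgp, which encodes an inhibitor of vascular calcification, had 2919 CPM in 1d and 1342 CPM in Ctrl, a ratio of 2.17 (1.73 to 2.71).

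By the nearer end of the interval, the genes furthest from a ratio of 1 on the higher side were Plec, Tiparp, Sptbn1, Gpx1, Col18a1, Rhoa, Hnrnpa1, Anp32e, Dennd5a and Hspa8, with ratios between 1.36 for Hspa8, a heat shock cognate chaperone, and 3.02 for Anp32e, a histone chaperone. Plec, which encodes the cytolinker plectin, was found in 8 of 8 cells of 1d and 30 of 42 of Ctrl, at 920 and 401 CPM. On the lower side, Ccn2, a YAP target, had 0 UMIs in 1d against 66 in Ctrl and was at least 3.65-fold lower. Ehd3, a gene of vesicle recycling, had 0 UMIs in 1d against 53 in Ctrl and was at least 2.93-fold lower.

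The comparison of 7d with Ctrl asks the same of the week after irradiation. Of 3050 measured genes, 14.3% were at least 2-fold higher in 7d and 18.2% at least 2-fold lower, with a median log2 ratio of -0.04. Klf2 and several immediate early and arterial genes were high in 7d, while many inflammatory and some oxidative stress and clotting genes were low.

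Klf2, the flow-induced factor that keeps endothelium quiescent, had 187 UMIs in 17 of 19 cells of 7d and 59 UMIs in 19 of 42 cells of Ctrl. The levels were 1879 CPM in 7d and 257 CPM in Ctrl, a ratio of 7.31 (5.43 to 9.97). In 1d it had 736 CPM, a ratio of 2.86 (1.76 to 4.56) to Ctrl, and 1 cell held 53.6% of the UMIs there. Ctrl was thus the lowest of the 3 libraries. For 7d against Ctrl the same gene had a ratio of 0.827 in connective tissue cells and 1.27 in the rest of the barcodes. Within 7d it was highest in the arterial set, at 2985 CPM, and reached 994 CPM in the other cells. In Ctrl it was 122 CPM in the arterial set and 294 CPM elsewhere. The arterial value of Ctrl rested on 6 UMIs, of which 3 lay in the deep cell that also had Selp. Its paralogue Klf4 had 1447 CPM in 7d and 1155 CPM in Ctrl, a ratio of 1.25 (1.02 to 1.54). Nos3, the nitric oxide synthase of endothelium and a target of KLF2, had 211 CPM in 7d and 209 CPM in Ctrl, a ratio of 1.01 (0.574 to 1.72). Thbd, a further known target, had 452 CPM in 7d and 248 CPM in Ctrl, a ratio of 1.82 (1.20 to 2.74). Of 13 measured genes of flow and vascular tone, 4 were at least 2-fold higher in 7d and 1 lower, beside 14.3% and 18.2% of all genes. With TMM factors 2 were higher and 2 lower, and without doublets 5 were higher and 1 lower.

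The promoter of Klf2 is shown because the gene stood far from 1 here and its MEF2 site is well known. The 250 bases before its start lie at chr8:72318812-72319061 on the plus strand of GRCm38.p6 in RefSeq. Capitals mark a match to the MEF2 motif (CTA and TAG with any 4 bases between), searched on both strands, which begins 118 bases before the start. In the same table, 1211 of 32851 promoters of 300 bases (3.69%) held the motif. A match describes the letters and not binding.
Klf2: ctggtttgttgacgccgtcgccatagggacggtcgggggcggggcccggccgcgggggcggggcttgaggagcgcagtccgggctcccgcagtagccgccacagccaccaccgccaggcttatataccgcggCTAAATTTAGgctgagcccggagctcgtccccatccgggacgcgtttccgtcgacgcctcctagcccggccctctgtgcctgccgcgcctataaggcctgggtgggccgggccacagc

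Immediate early genes are switched on within minutes by growth factors, flow and stress. Of 21 measured members, 7 were at least 2-fold higher in 7d and 2 lower, beside 14.3% and 18.2% of all genes. Their median log2 ratio was 0.54. Fos, a subunit of AP-1, had 2622 CPM in 18 of 19 cells of 7d and 562 CPM in 26 of 42 cells of Ctrl, a ratio of 4.67 (3.76 to 5.81). In 1d it had 394 CPM, found in 2 of 8 cells. Nr4a1, an orphan nuclear receptor, had 824 CPM in 7d and 91.5 CPM in Ctrl, a ratio of 9.0 (5.52 to 15.3). Its relative Nr4a2 stood on the other side, with 20.1 CPM in 7d and 279 CPM in Ctrl, a ratio of 0.0721 (0.00854 to 0.271). Egr1, Zfp36, Ier2 and Socs3 had ratios between 3.12 and 3.96. Junb and Jun, the partners of FOS in AP-1, had 1.68 (1.42 to 2.0) and 1.15 (0.936 to 1.41). In connective tissue cells the ratio of Fos was 2.74 and that of Nr4a1 was 0.766.

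Of 16 measured glucocorticoid-induced genes 3 were at least 2-fold higher in 7d and 4 lower, near the 14.3% and 18.2% of all genes. Tsc22d3, which encodes the GILZ protein that glucocorticoids induce, had 583 CPM in 15 of 19 cells of 7d and 56.6 CPM in 10 of 42 cells of Ctrl, a ratio of 10.3 (5.57 to 20.5). Its ratio was 9.0 in connective tissue cells as well. Per1, a clock gene, had a ratio of 4.04 (1.58 to 11.1) and Txnip, which binds thioredoxin, 3.56 (2.40 to 5.33). Errfi1, a feedback inhibitor of the EGF receptor, had 40.2 CPM in 7d and 553 CPM in Ctrl, a ratio of 0.0726 (0.0195 to 0.191).

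**Figure D3:**
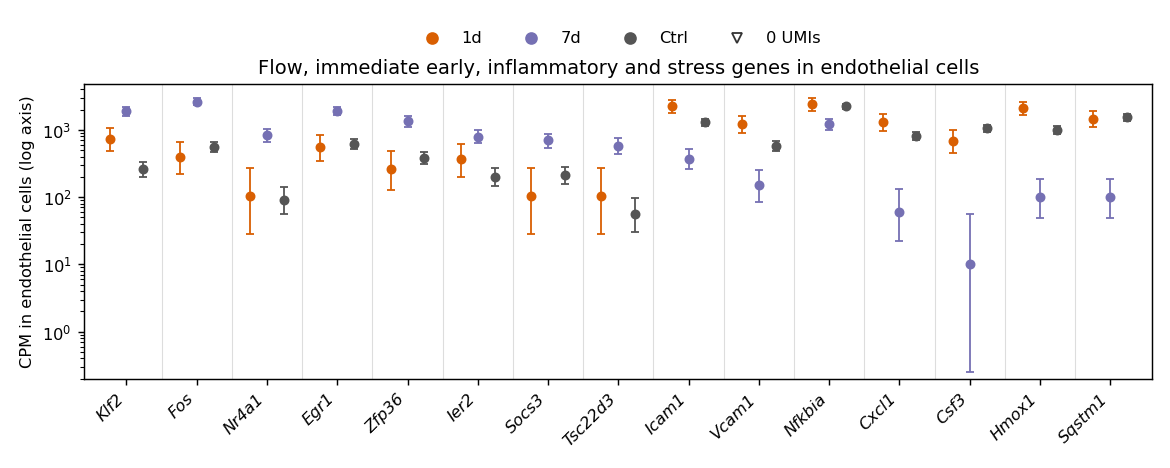
Level of 15 flow, immediate early, glucocorticoid, inflammatory and oxidative stress genes summed over the endothelial cells of each library, in CPM on a log axis, with exact 95% Poisson intervals. From Klf2 to Tsc22d3 the level in 7d lies above Ctrl, and from Icam1 to Sqstm1 it lies below Ctrl, with Csf3 at 1 UMI in 7d.

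Inflammatory genes were low in 7d. Of 27 measured members of the NF-kB and inflammatory list, 14 were at least 2-fold lower, beside 18.2% of all genes. The median log2 ratio was -1.06, and 3 members were higher, beside 14.3% of all genes. The higher members were Lcn2, Il1b and Socs3, of which Lcn2 is also a neutrophil marker. Without the cells rich in blood RNA, 15 of 23 measured members were lower and 1 was higher. Over the rest of the barcodes 13 of the 27 were at least 2-fold lower, beside 16.6% of the same 3050 genes there.

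Cytokine genes stood furthest apart. Csf3, which encodes the granulocyte growth factor G-CSF, had 1 UMI in 1 of 19 cells of 7d and 241 UMIs in 23 of 42 cells of Ctrl, a ratio of 0.00957 (0.000241 to 0.0538). In 1d it had 26 UMIs in 4 of 8 cells, at 684 CPM beside 1050 CPM in Ctrl. Cxcl1, a neutrophil attractant, had 60.3 CPM in 4 of 19 cells of 7d and 806 CPM in 30 of 42 cells of Ctrl, a ratio of 0.0748 (0.0271 to 0.166). The rest of the barcodes had a ratio of 0.0698 for Cxcl1 and connective tissue cells 0.540. Csf1, the macrophage growth factor gene, had 3 UMIs in 7d and 49 in Ctrl, a ratio of 0.141 (0.0281 to 0.437). Cxcl2, a close relative of Cxcl1, had 633 CPM in 7d and 575 CPM in Ctrl, but 1 cell held 93.7% of its UMIs in 7d. Its log2 ratio was 0.14 with all cells and -0.65 with cells weighted equally. It was -3.43 without cells rich in blood RNA and -3.34 without the highest cell of each library.

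Of 12 measured genes of leukocyte adhesion 4 were at least 2-fold higher in 7d and 3 lower, beside 14.3% and 18.2% of all genes. Their median log2 ratio was 0.47. The lower members were Icam1, Vcam1 and Selp. Icam1 had 372 CPM in 13 of 19 cells of 7d and 1294 CPM in 31 of 42 cells of Ctrl, a ratio of 0.287 (0.198 to 0.405). Vcam1 had a ratio of 0.260 (0.142 to 0.445). Selp had 85 UMIs in 7 of 19 cells of 7d and 848 UMIs in 22 of 42 cells of Ctrl, a ratio of 0.231 (0.183 to 0.289). Sele, the E-selectin gene, was within 2-fold at 0.685 (0.405 to 1.12). In the rest of the barcodes the ratios were 0.529 for Icam1, 0.799 for Vcam1 and 0.203 for Selp. In connective tissue cells they were 0.457 for Icam1 and 0.231 for Vcam1. Among the higher members, Icam2, an adhesion molecule that resting endothelium carries, had a ratio of 3.31 (1.88 to 5.90) and Podxl, a sialomucin, 3.01 (2.35 to 3.88). Of the NF-kB subunits, Nfkb1 had 0.232 (0.129 to 0.389), and Nfkbia, the inhibitor that holds NF-kB in the cytoplasm, had 0.543 (0.441 to 0.663).

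The promoters of Icam1 and Cxcl1 are shown because these genes were among the 14 lower members and hold a known type of NF-kB site. Capitals mark matches to GGAANNTCC, searched on both strands. The motif stands in 1399 of 32851 promoters of 300 bases (4.26%). Of the 14 lower members 8 had a promoter in the table and 6 of these held the motif. Over the list as a whole 10 of 22 did, and these 10 include the 6. The list was chosen for NF-kB and inflammatory genes, and its lower members were picked from these same data. The 10 also include Sele and Nfkbia, which were within 2-fold of Ctrl and so not among the lower members. The promoter of Selp, a gene at least 2-fold lower than in Ctrl, held no match. The motif thus did not mark the lower genes alone, nor all of them. A role of the motif was not tested. The 250 bases before the start lie at chr9:21015690-21015939 for Icam1 and chr5:90890995-90891244 for Cxcl1, both on the plus strand of GRCm38.p6 in RefSeq, and the matches begin 153 and 70 bases before the start.
Icam1: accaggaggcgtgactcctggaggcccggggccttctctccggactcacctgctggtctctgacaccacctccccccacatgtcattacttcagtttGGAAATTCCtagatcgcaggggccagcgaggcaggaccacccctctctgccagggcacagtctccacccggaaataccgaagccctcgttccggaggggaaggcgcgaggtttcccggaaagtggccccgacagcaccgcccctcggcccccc
Cxcl1: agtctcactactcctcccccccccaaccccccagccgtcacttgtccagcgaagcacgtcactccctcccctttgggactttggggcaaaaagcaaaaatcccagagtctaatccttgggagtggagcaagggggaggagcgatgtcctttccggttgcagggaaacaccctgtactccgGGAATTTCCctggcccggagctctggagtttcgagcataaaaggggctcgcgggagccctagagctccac

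Genes that govern clotting and fibrinolysis were lower more often than higher in 7d, with 5 of 14 lower and 2 higher, beside 18.2% and 14.3% of all genes, at a median log2 ratio of 0.06. Procr, the endothelial protein C receptor gene, had a ratio of 0.307 (0.127 to 0.645). Plat had 10 UMIs in 7d and 75 in Ctrl, a ratio of 0.307 (0.142 to 0.597). Ptgs2, the inducible cyclooxygenase gene, had 0 UMIs in 7d against 144 UMIs in Ctrl and was at least 20.8-fold lower, but 1 cell held 91.0% of the UMIs in Ctrl. Entpd1, an ectonucleotidase that limits platelet activation, had 834 CPM in 7d and 349 CPM in Ctrl, a ratio of 2.39 (1.74 to 3.29). Vwf had 603 CPM in 7d and 423 CPM in Ctrl, a ratio of 1.43 (1.02 to 1.99).

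Of 16 measured genes of the NRF2 oxidative stress response, 5 were at least 2-fold lower in 7d and 2 higher, beside 18.2% and 14.3% of all genes. Without doublets 7 of 13 were lower and 0 higher, and without cells rich in blood RNA 6 of 14 were lower and 1 higher. Sqstm1, the autophagy receptor p62, had 100 CPM in 8 of 19 cells of 7d and 1529 CPM in 41 of 42 cells of Ctrl, a ratio of 0.0657 (0.0312 to 0.122). Hmox1, heme oxygenase 1, had 100 CPM in 7d and 998 CPM in Ctrl, a ratio of 0.101 (0.0476 to 0.189), and 0.118 in connective tissue cells. In 7d, 1 cell held 80.0% of the UMIs of Hmox1. Txnrd1, thioredoxin reductase, had 0.125 (0.0331 to 0.333). Of 13 heat shock genes 4 were lower and 0 higher, beside the same shares, among them Hsp90aa1 with 0.447 (0.333 to 0.593). Hif1a, the hypoxia factor, had a ratio of 0.322 (0.203 to 0.491), while its endothelial relative Epas1 had 1869 CPM in 7d and 815 CPM in Ctrl, a ratio of 2.29 (1.86 to 2.82).

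Part of the p53 response was also lower in 7d than in Ctrl. Of 19 measured members 8 were at least 2-fold lower and 1 was higher, beside 18.2% and 14.3% of all genes, with a median log2 ratio of -0.53. With cells weighted equally 5 of 18 were lower. Over the rest of the barcodes 10 of the 19 were lower, beside 16.6% of the same 3050 genes there. Cdkn1a had 834 CPM in 7d and 2976 CPM in Ctrl, a ratio of 0.280 (0.220 to 0.352). Phlda3 had 332 CPM in 7d and 484 CPM in Ctrl, a ratio of 0.685 (0.450 to 1.02), and Bax 0.719 (0.435 to 1.15). Of 15 measured genes of apoptosis and sphingolipid metabolism 4 were at least 2-fold higher in 7d and 3 lower. These stood beside 14.3% and 18.2% of all genes, at a median log2 ratio of -0.46. The counts were 2 higher and 5 lower with TMM factors, 3 and 4 without doublets, and 5 and 3 at a marker sum of at least 5. Among the higher members, Bcl2l1, which encodes the survival protein BCL-XL, had 311 CPM in 12 of 19 cells of 7d and 47.9 CPM in 9 of 42 cells of Ctrl, a ratio of 6.50 (3.18 to 14.3). Sgms1, a sphingomyelin synthase gene, had 2.79 (1.72 to 4.57). Among the lower members, Bcl2l11, which encodes the death activator BIM, had 60.3 CPM in 7d and 152 CPM in Ctrl, a ratio of 0.395 (0.136 to 0.95).

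Many arterial and some junctional genes were high in 7d. Of 14 measured arterial genes 9 were at least 2-fold higher and 3 lower, beside 14.3% and 18.2% of all genes. The lower members were Efnb2, Unc5b and Cxcr4. When cells were weighted equally, 2 of 11 were higher and 2 lower, and the log2 ratio of Sema3g was 0.87 in place of 2.62. Stmn2 had 462 CPM in 6 of 19 cells of 7d and 47.9 CPM in 6 of 42 cells of Ctrl, a ratio of 9.64 (4.92 to 20.6). Gja5, the connexin 40 gene, had 6.92 (2.63 to 21.3), with 72.2% of its UMIs in 7d in 1 cell. The deepest cell of 7d, with 19.4% of the endothelial UMIs there, held 25 of the 46 UMIs of Stmn2 and 47 of the 78 of Sema3g. Of 20 measured genes of junctions and caveolae 8 were higher and 1 lower, beside the same shares of all genes. With TMM factors or with cells weighted equally 4 were higher. Cav1, the main caveolin gene, had 764 CPM in 16 of 19 cells of 7d and 314 CPM in 29 of 42 cells of Ctrl, a ratio of 2.43 (1.74 to 3.41), and Cavin2, which shapes caveolae, had 3.94 (2.73 to 5.75). Cldn5 had 2.34 (1.81 to 3.03), with 59.7% of its UMIs in 7d in 1 cell, and its log2 ratio changed sign to -0.17 with cells weighted equally and to -0.50 with cells thinned. Gja1, the connexin 43 gene, was the lower member, with 181 CPM in 7d and 658 CPM in Ctrl, a ratio of 0.275 (0.159 to 0.449).

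Of 11 measured venous genes 4 were at least 2-fold higher in 7d and 2 lower, beside 14.3% and 18.2% of all genes. The lower members were Selp and Vcam1. Nr2f2, the factor that sets venous fate, had 291 CPM in 7 of 19 cells of 7d and 78.4 CPM in 13 of 42 cells of Ctrl, a ratio of 3.71 (1.99 to 7.10). Ackr1 had 3.04 (1.99 to 4.67) and Lrg1, which modulates TGF-beta signalling in endothelium, 3.84 (2.76 to 5.38), with 58.0% of its UMIs in 7d in 1 cell. Of 12 measured tip cell genes 6 were at least 2-fold lower and 2 higher, beside 18.2% and 14.3% of all genes. Pgf, the placental growth factor gene, had 1 UMI in 7d and 95 in Ctrl, a ratio of 0.0243 (0.000608 to 0.139), and Esm1 was at least 4.77-fold lower. Apln, the apelin gene, was higher, with 18 UMIs in 3 cells of 7d and 7 UMIs in 3 cells of Ctrl, a ratio of 5.93 (2.36 to 16.8).

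Genes of signalling between cells were split. Of the VEGF receptors, Kdr had a ratio of 0.971 (0.697 to 1.34) and Flt1 had 1.00 (0.823 to 1.22) in 7d against Ctrl. Nrp2, a co-receptor of VEGF-C, had 0.212 (0.0987 to 0.404). In the BMP pathway, Bmp6 had 452 CPM in 7d and 113 CPM in Ctrl, a ratio of 3.99 (2.41 to 6.74) with 66.7% of its UMIs in 7d in 1 cell, and Id1, a direct target, had 663 CPM in 7d and 179 CPM in Ctrl, a ratio of 3.71 (2.48 to 5.62). Bmp2 could not be ordered: 1 cell held 93.3% of its 268 UMIs in Ctrl, and the log2 ratio was -2.25 with that cell and 1.10 without the highest cell of each library. Cxcl12, the chemokine that retains blood stem cells, had 291 CPM in 7d and 283 CPM in Ctrl, a ratio of 1.03 (0.640 to 1.62). Kitl, the stem cell factor gene, had 0.979 (0.622 to 1.51) in 7d, while in 1d it had 2 UMIs and a ratio of 0.165 (0.0197 to 0.619). Mgp was the most abundant of these secreted genes, at 6691 CPM in 7d and 1342 CPM in Ctrl, a ratio of 4.99 (4.35 to 5.73), and 1 cell held 50.6% of its UMIs in 7d.

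**Figure D4:**
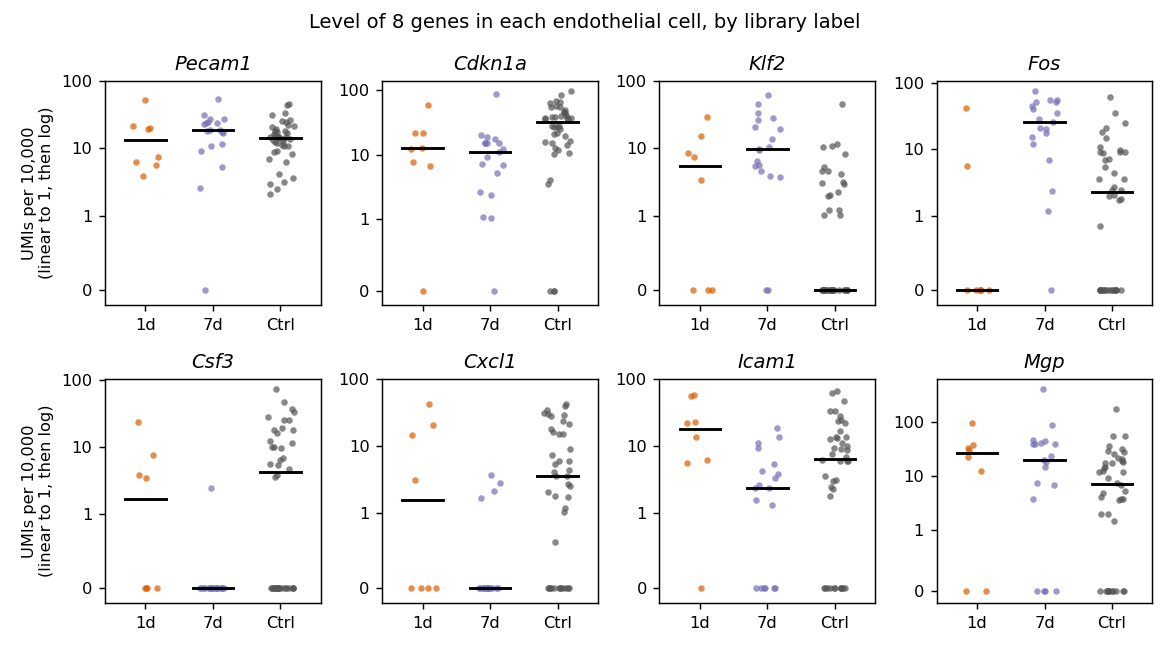
Level of 8 genes in each endothelial cell, as UMIs per 10000 of that cell (linear up to 1, then a log axis), by library label, with a black line at the median. The median of Klf2 was 5.36 in 1d, 9.81 in 7d and 0 in Ctrl, and that of Cdkn1a 12.5 in 1d, 10.9 in 7d and 31.5 in Ctrl.

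Cells of both libraries overlapped for the abundant genes. The median Fos level was 26.1 UMIs per 10000 in 7d, against 2.26 in Ctrl, and the ranges overlapped, with a maximum of 74.9 in 7d and 60.9 in Ctrl. The median of Csf3 was 0 in 7d and 4.21 in Ctrl, with a maximum of 2.45 in 7d and 74.5 in Ctrl.

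Of the genes furthest from 1 in 7d that no paragraph above describes, Tns2, Rasd1, Depp1, S100a6 and Ak3 were higher, with ratios between 3.56 for S100a6, a calcium-binding protein gene, and 10.4 for Rasd1, a glucocorticoid-induced small GTPase gene. S100a6 had 3285 CPM in 19 of 19 cells of 7d and 924 CPM in 35 of 42 cells of Ctrl. Sox4, a SOX family factor gene, had 221 CPM in 7d and 1804 CPM in Ctrl, a ratio of 0.123 (0.0759 to 0.188), and Zfp703, a zinc finger gene, had 0.0623 (0.0168 to 0.163). Slc7a1, the cationic amino acid carrier that supplies arginine, had 0 UMIs in 7d against 51 UMIs in 25 of 42 cells of Ctrl and was at least 7.37-fold lower. Adamts4, an aggrecanase gene, had 0 UMIs in 7d against 44 in 23 cells of Ctrl and was at least 6.36-fold lower. Cxcr4 was low in 7d as in 1d, with 8 UMIs in 7d and a ratio of 0.110 (0.0469 to 0.223).

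**Figure D5:**
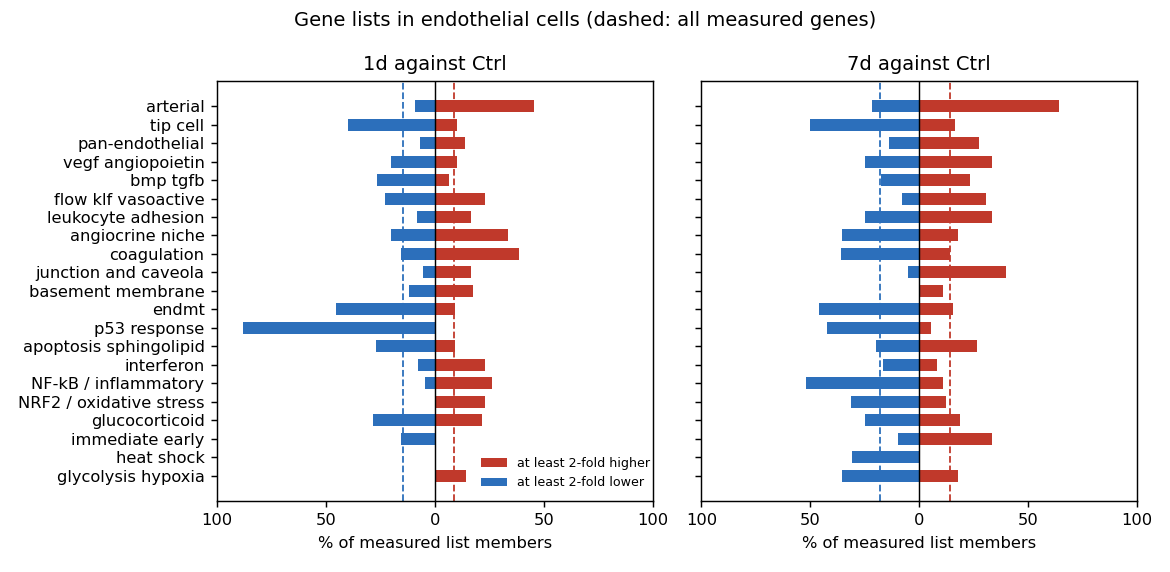
Share of the measured members of 21 gene lists that were at least 2-fold higher (red, to the right) or at least 2-fold lower (blue, to the left) in 1d against Ctrl and in 7d against Ctrl; dashed lines mark the shares over all measured genes, 8.94% and 14.5% for 1d and 14.3% and 18.2% for 7d. The p53 list has the longest bar to the left in 1d, and the inflammatory list in 7d.

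A list of mesenchymal transition genes held more lower than higher members in 1d and 7d, with 5 of 11 measured members lower in 1d, beside 14.5% of all genes, and 6 of 13 in 7d, beside 18.2%. Without doublets the counts were 2 of 7 in 1d and 4 of 11 in 7d, and without each gene's highest cell 1 of 4 in 1d and 3 of 7 in 7d. Its lower members included Col1a1, Col1a2, Col3a1, Acta2 and Tagln, which are genes of fibroblasts and mural cells. Pericyte and smooth muscle genes summed to 26.3 CPM in 1d, 100 CPM in 7d and 466 CPM in Ctrl, where 1 cell held 74.8% of them. The part of these cells' RNA in the result was not tested.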

How the data were processed

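The 3 libraries were 10x Genomics 3' libraries of jaw cells, digested with collagenase II, frozen and thawed, per the labels' protocols. The deposited values are UMI counts per gene and barcode, not normalized. The submitters' processing notes name CASAVA 1.8, Cell Ranger, Seurat and mm10, and the file headers give Cell Ranger 6.1.1; the sources used here give neither settings nor annotation. The endothelial members and the gene lists were chosen with earlier results of these data known, so no pattern here is independent support of those results.

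UMIs were summed over the endothelial cells of each library and scaled to CPM (numpy 2.4.6, scipy 1.17.1), with exact Poisson intervals for levels, exact conditional binomial intervals for ratios and exact binomial (Clopper-Pearson) intervals for shares. Genes with at least 20 UMIs over both libraries were measured, and log2 ratios used a pseudocount of 0.5 UMI. A gene with 0 UMIs in 1 library is given as a bound at 3 UMIs per library. Named genes were up to 10 per side furthest from 1 by the nearer end of the interval, found in at least 20% and at least 3 cells where higher, with no cell there holding over 30% of the UMIs, plus Pecam1 and list members. The arterial set and the cells with Selp were defined after values were seen. Doublets were called with Scrublet in scanpy 1.11.5, at 0.8% per 1000 barcodes, and kept. Connective tissue cells had at least 1 UMI of Dcn and 3 of Col1a2, with 0 of Ptprc and Cdh5. The ratio code was tested on simulated counts. Alternatives were a stricter filter, a marker sum of at least 5, doublets or cells with over 2% blood RNA left out, cells thinned to 1000 UMIs, TMM factors (edgeR 4.0.16), equal weight per cell, 5% free RNA subtracted, other UMI minimums and the highest cell of each gene left out. Some results are not reported here.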

Additional observations from a re-analysis of the deposited data

Results flagged for a closer look

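Among the named genes and list members, 9 lay at least 2-fold from Ctrl in opposite directions in 1d and 7d. The difference between 1d and 7d was not tested, and both comparisons share the same Ctrl cells. The log2 ratios were 1.64 in 1d and -2.62 in 7d for Csf1, 1.06 and -3.24 for Hmox1, 1.90 and -1.99 for Il6, 1.53 and -2.13 for Mt2, a metallothionein gene, and 1.07 and -1.90 for Nfkb2, an NF-kB subunit gene. They were 1.01 and -1.48 for Pfkp, a glycolytic enzyme gene, 1.03 and -1.63 for Procr, 1.05 and -2.94 for Tiparp, an aryl hydrocarbon receptor target, and 1.07 and -1.90 for Vcam1. The value of Il6 in 1d rested on 1 cell, and 73.1% of the UMIs of Mt2 and 55.7% of those of Hmox1 in 1d also lay in 1 cell. Of the 9, Csf1 alone stayed at least 2-fold higher in 1d under each alternative with a value, at a log2 ratio of 1.16 or more. The lowest log2 ratios in 1d, within 2-fold, were 0.22 for Hmox1, 0.44 for Mt2, 0.45 for Pfkp and 0.55 for Vcam1. They were 0.61 for Procr, 0.74 for Tiparp and 0.77 for Nfkb2.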

How the results depend on the processing

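No paired analysis was possible because each group was 1 library and the labels give no shared replicate numbers. Depth limits 1d most: a gene at 0 UMIs there could reach 78.9 CPM at 3 UMIs, against 30.1 CPM in 7d and 13.1 CPM in Ctrl. TMM factors moved all log2 ratios by -0.30 in 1d and -0.32 in 7d. The share of endothelial cells in Ctrl was 0.653% with Ptprc allowed and 0.259% in barcodes thinned to 1000 UMIs; over barcodes without Ptprc and little haemoglobin it was 0.558% in 1d, 2.31% in 7d and 1.50% in Ctrl. Genes at least 2-fold higher in 1d, 220 of those measured, numbered 35 with thinned cells, 84 with TMM factors, 54 without each gene's highest cell, 1254 at 5 UMIs and 22 at 100 UMIs. Genes lower in 1d, 356, numbered 46 thinned, 1260 at 5 UMIs and 27 at 100. Genes higher in 7d, 436, numbered 63 thinned, 259 with TMM factors, 249 without the highest cell, 1650 at 5 UMIs and 57 at 100. Genes lower in 7d, 554, numbered 112 thinned, 1174 at 5 UMIs and 107 at 100. Thinning and higher minimums leave fewer genes to measure; the other causes were not tested.

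Shares of cells with 2 markers moved when cells were not thinned, to 87.5% in 1d, 84.2% in 7d and 90.5% in Ctrl for arterial, 100%, 94.7% and 92.9% for capillary, 78.9% in 7d and 76.2% in Ctrl for venous, 100%, 73.7% and 92.9% for sinusoid, 87.5%, 84.2% and 85.7% for tip markers, and 14.3% in Ctrl for lymphatic markers. With 3 markers they were 36.8% in 7d for arterial, 0% in 1d and 7.14% in Ctrl for capillary, 37.5% in 1d and 35.7% in Ctrl for venous, 25% in 1d and 21.4% in Ctrl for sinusoid, and 35.7% in Ctrl for tip markers. Among gene ratios reported as at least 2-fold, those that turned round were Bmp2 in 7d, to a log2 ratio of 1.53 without doublets and 1.10 without the highest cell, Cldn5 in 7d, to -0.50 with thinned cells and -0.17 with equal weights, Il6 in 1d, to -1.57 without the highest cell, Il1b in 7d, to -0.29 with equal weights, and with thinned cells Id3, a BMP target, in 1d to 0.43 and Plk2 in 1d to 0.35. In 175 cases a named gene had too few UMIs under an alternative to give a value. Ratios reported within 2-fold changed sign in 89 cases, among them Selp, Cxcl1 and Adamts4 in 1d without the highest cell. Of all gene values under an alternative 1887 stayed within the counting interval of the reported value.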
